A study of Schizocardium californicum with 12 samples.

Results

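Parp1-2 and Apex1 are genes of the indirect-developing hemichordate *Schizocardium californicum* that were chosen by name because their reads rose after X-ray irradiation in larvae and in juveniles. They are 2 of the 27463 genes in the deposited tables, and 2 other genes, Parp1-1 and Parp1-3, carry the name Parp1 with another number and serve as the comparison for paralogs. The numbers tell apart genes to which the deposited annotation gives one name, and orthology was not tested here. Both genes and both paralogs passed the filter on low counts, as did 20780 genes in all.

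RNA-seq was carried out on whole animals 3 days after treatment, with 4 groups of 3 libraries and 5 animals of one stage pooled in each library. The groups were control larvae (0 Gy), larvae given 120 Gy, control juveniles (0 Gy) and juveniles given 200 Gy. The labels name no genotype, age or further agent for any group, and the spread within a group is that between separate pools. As each stage had its own dose, stage and dose cannot be told apart in any comparison of irradiated larvae with irradiated juveniles. Pools hold every tissue, so fewer cells of a type and less RNA per cell cannot be told apart either.

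In the animals where this has been studied, mainly mammals, PARP1 binds to nicks and breaks in DNA and uses NAD to build chains of poly(ADP-ribose), which draw in other repair proteins such as XRCC1 and DNA ligase III. APEX1 is the main endonuclease of base excision repair. After a DNA glycosylase has removed a damaged base, it cuts the strand at the site left empty, and the gap is then filled by a polymerase and sealed by a ligase. X-rays damage bases and break strands, so that both enzymes act on lesions of the kind that irradiation leaves.

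Parp1-2 (SCA14459) is annotated on chr1A_Sc2 of the v2.0 genome with 23 exons, a gene length of 47492 bases and an exon length of 3665 bases. Apex1 (SCA23250) lies on chr4A_Sc2, with 10 exons, a gene length of 25079 bases and an exon length of 1224 bases. The 12 libraries placed 11201 reads on Parp1-2 and 9069 on Apex1. Of these reads, 98.7% and 99.7%, respectively, had a unique place in the genome, so few could be shared with a near-identical copy.

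Parp1-2 had 372, 372 and 306 normalized reads in the 3 control larval libraries, where normalized reads are counts scaled to a common library size. It had 1029, 979 and 1004 in the irradiated larvae. All irradiated larval libraries lay above all controls, and the spread among them (SD 25.3, n = 3) was narrow. The change was 2.87-fold (log2 1.52, SE 0.12). In juveniles, Parp1-2 was at 301, 278 and 322 in controls and at 1522, 1787 and 1524 after irradiation. The lowest irradiated juvenile library was far above the highest control, and the change was 5.35-fold (log2 2.42, SE 0.13). Because the gene was chosen for this rise, the values describe it and are no test of it.

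Apex1 also had more reads after irradiation in both stages. Control larvae had 246, 312 and 264 normalized reads, and irradiated larvae 641, 612 and 753. The change was 2.43-fold (log2 1.28, SE 0.17), with no overlap between the groups. Control juveniles had 332, 253 and 346, and irradiated juveniles 1373, 1718.5 and 1203. This was a 4.59-fold change (log2 2.20, SE 0.17), and the irradiated juvenile libraries varied more (SD 263, n = 3) than any other group of this gene. Like Parp1-2, Apex1 was chosen on these contrasts.

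**Figure D1:**
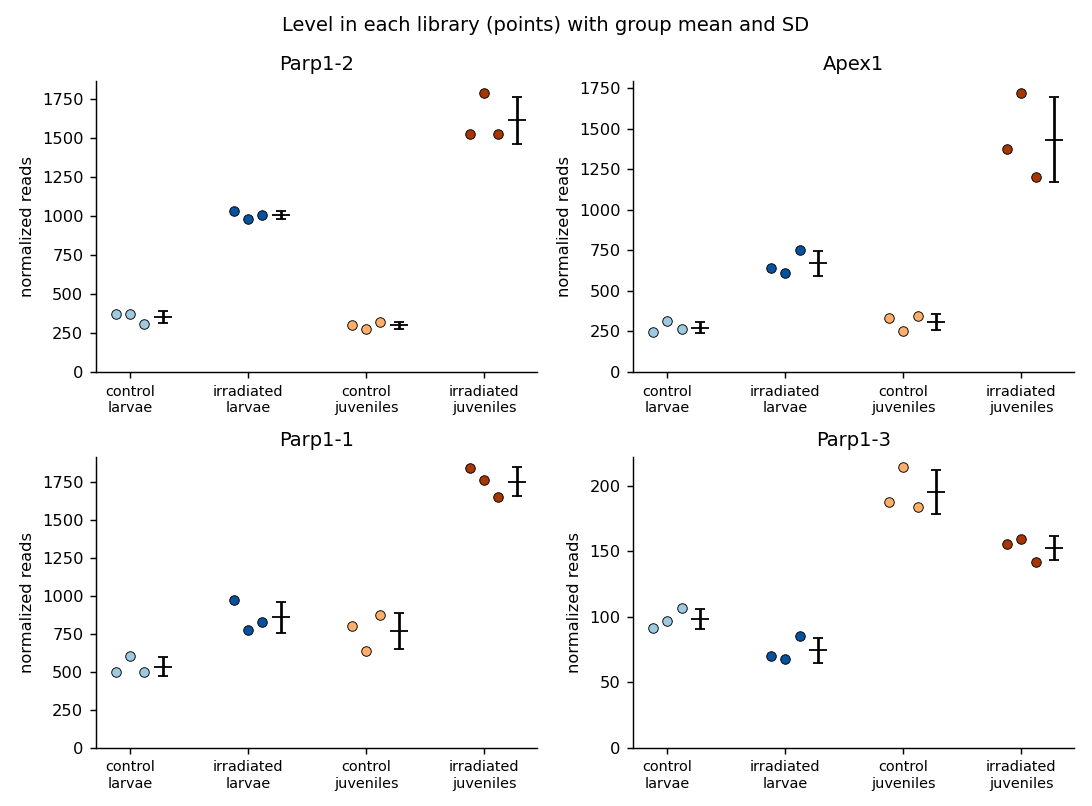
Normalized reads (y axis, linear from 0, own scale in each panel) of Parp1-2, Apex1, Parp1-1 and Parp1-3 in each of the 12 libraries (points), by group, with the group mean and SD beside the points. The irradiated libraries of Parp1-2 and Apex1 lie above all controls of their stage, those of Parp1-1 do so by a smaller factor, and those of Parp1-3 lie below them.

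Over the tested genes, all 3 irradiated libraries lay above all 3 controls in 12.6% of genes in larvae and in 19.5% in juveniles. A higher log2 fold change than that of Parp1-2 was found for 512 of 20780 genes in larvae and for 79 in juveniles. For Apex1 these numbers were 669 and 98. These are places in the order of the same contrasts that the choice used, and nothing is drawn from them.

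The irradiation change was larger in juveniles than in larvae for both genes, by 0.90 on the log2 scale for Parp1-2 (SE 0.17) and by 0.92 for Apex1 (SE 0.24). The irradiated juvenile libraries lay above the irradiated larval libraries for each gene. Here too the genes were chosen on the contrasts, and the juvenile dose was the higher one.

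The unirradiated groups of both stages were compared by a test. The genes were not chosen on this contrast, but its libraries are the controls of the contrasts that the choice used. The test is therefore not fully independent of the choice. Parp1-2 had 350.01 ± 38.5 normalized reads (SD, n = 3) in control larvae and 300.3 ± 22.4 in control juveniles, and the 2 groups overlapped. The log2 difference, juveniles minus larvae, was -0.22 with a 95% interval from -0.48 to 0.05, and it did not pass the quasi-likelihood test of edgeR after Benjamini-Hochberg adjustment (adjusted p = 0.144). Without replicate 3 of the control larvae it did pass (-0.31, adjusted p = 0.0496). Apex1 had 274 ± 34.4 and 310.3 ± 50.2 normalized reads, a log2 difference of 0.18 with an interval from -0.19 to 0.55 (adjusted p = 0.371). In this comparison of controls 62.6% of all tested genes were called. From low to high, the means of Parp1-2 ran from control juveniles to control larvae to irradiated larvae to irradiated juveniles, and those of Apex1 in the same way but with control larvae lowest. In both genes the 2 control groups were not separated by the test.

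The authors' TPM values divide exon reads by exon length and allow genes to be compared. Apex1 was the more abundant transcript per length in every group. In larvae its TPM was 36.4 ± 5.86 (SD, n = 3) without and 93.8 ± 10.9 with irradiation, and in juveniles it was 37.8 ± 7.72 and 172 ± 37.2. Parp1-2 was at 16.1 ± 2.63, 48.3 ± 2.43, 11.7 ± 1.23 and 64.5 ± 8.82 TPM in the same order. The ratio of Parp1-2 to Apex1 TPM stayed between 0.315 (control juveniles, SD 0.0399) and 0.519 (irradiated larvae, SD 0.0549).

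The reads behind these levels were mostly exonic. Intron reads made up 2.96% ± 1.13 of Parp1-2 reads in control larvae and 2.81% ± 0.549 in irradiated larvae. In juveniles the intron share of Parp1-2 was 8.50%, 5.79% and 6.80% in controls and 1.46%, 2.29% and 3.47% after irradiation. The juvenile groups did not overlap. The exact two-sided permutation test gave p = 0.1, the smallest value that 3 against 3 libraries allow. After adjustment over 8 tests of read shares it was 0.4. The shares of both genes have total reads as denominator, and the rise of total reads was the ground of the choice. These tests are thus not independent of the choice, and nothing is drawn from them. As normalized intron reads, these juvenile controls had 25.6, 16.1 and 21.9 and the irradiated juveniles 22.2, 40.9 and 52.9, so that the intron reads overlapped while the exon reads did not. The intron reads of Apex1 did not overlap in juveniles, with 9.74, 10.2 and 11.0 in controls against 35.4, 32.9 and 35.4, and its intron share was 3.38% ± 0.587 and 2.48% ± 0.521 (exact permutation p = 0.2). Over all genes, 4.42% to 6.29% of reads were intronic, depending on the library.

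Of the other genes named Parp1, Parp1-1 also rose after irradiation in both stages and Parp1-3 did not. Whether the changes differ between the genes was not tested. Parp1-1 (SCA13943, chr1A_Sc2, 23 exons) had 497, 607 and 500.1 normalized reads in control larvae and 975, 775 and 827 in irradiated larvae. In juveniles it had 799, 640.3 and 873 in controls and 1840.4, 1766 and 1651 after irradiation. Its irradiated libraries lay above the controls in both stages, and it was called higher in both: 1.61-fold in larvae (log2 0.68, SE 0.14, adjusted p = 0.0219) and 2.27-fold in juveniles (log2 1.18, SE 0.14, adjusted p = 0.000205). In larvae 1.87% of all tested genes were called higher, and in juveniles 10.8%. The larval call was lost when replicate 1 or replicate 3 of the control larvae or replicate 1 of the irradiated larvae was left out, and with larval libraries alone (adjusted p from 0.0580 to 0.101).

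Parp1-3 (SCA15106, chr1A_Sc2, 6 exons, exon length 2582 bases) was the weakest of the 3 genes. It had 91.8, 96.9 and 107 normalized reads in control larvae and 70.3, 67.8 and 85.5 in irradiated larvae. In juveniles the values were 187, 215 and 184 in controls and 156, 159 and 142 after irradiation. In both stages every irradiated library was lower than every control, as was the case for 11.6% of tested genes in larvae and 21.1% in juveniles. The log2 changes of -0.41 (SE 0.16, adjusted p = 0.169) and -0.36 (SE 0.15, adjusted p = 0.102) did not pass the test, except in juveniles when all libraries were thinned to the depth of the smallest (adjusted p = 0.0371). Of Parp1-1 and Parp1-3 reads, 98.9% and 99.5% were uniquely placed.

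Unlike Parp1-2, both paralogs had more reads in control juveniles than in control larvae. The log2 difference was 0.53 for Parp1-1 (SE 0.14, adjusted p = 0.00600) and 0.98 for Parp1-3 (SE 0.15, adjusted p = 9.92e-05). The difference between the juvenile and the larval irradiation change was 0.50 for Parp1-1 (95% interval 0.06 to 0.94, adjusted p = 0.191) and 0.05 for Parp1-3 (-0.41 to 0.51, adjusted p = 0.932), and neither passed the test.

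Per exon length, Parp1-2 changed place with Parp1-1. The ratio of Parp1-2 to Parp1-1 TPM was 0.885 ± 0.0964 (SD, n = 3) in control larvae and 1.58 ± 0.135 in irradiated larvae. It was 0.505 ± 0.0560 in control juveniles and 1.22 ± 0.117 in irradiated juveniles. In every control library Parp1-1 had the higher TPM, and in every irradiated library Parp1-2 had. Of the TPM summed over the 3 genes, Parp1-2 held 39.5% ± 2.83, 57.6% ± 1.71, 25.3% ± 0.408 and 51.1% ± 2.28 in these 4 groups in turn. The share of Parp1-3 went from 15.8% to 5.88% in larvae and from 24.2% to 6.77% in juveniles. These shares rest on the contrasts used for the choice and are given as a description.

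**Figure D2:**
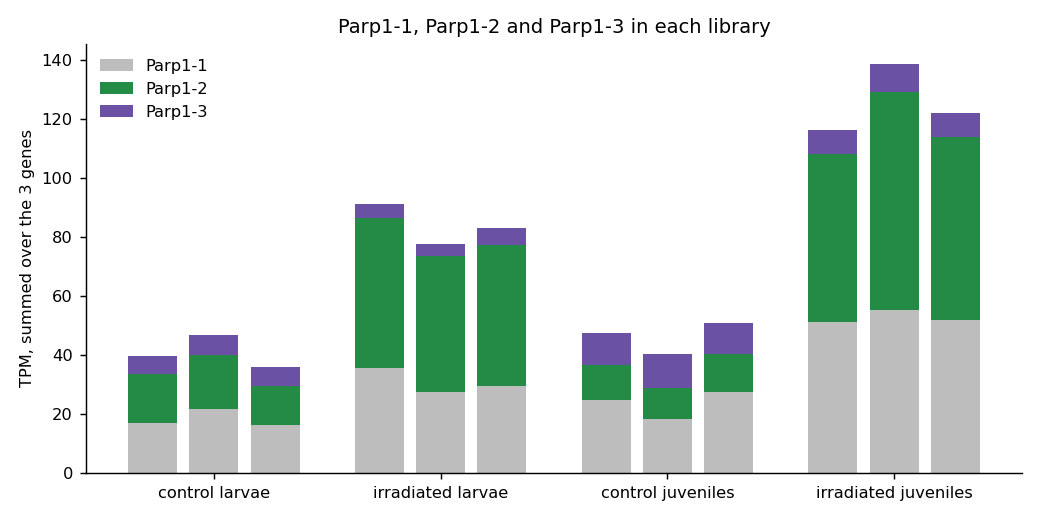
TPM of Parp1-1 (grey), Parp1-2 (green) and Parp1-3 (purple), stacked for each of the 12 libraries (y axis, TPM from 0). The green part is the largest in each irradiated library, and the summed TPM averages 40.8 against 84.0 in larvae and 46.3 against 126 in juveniles, controls first.

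The other genes of base excision and single-strand break repair were read from a list of names. Of 36 names, 35 were found, with 45 genes besides Parp1-2 and Apex1, and 44 of them were tested. In larvae 6 were called higher and 1 lower, with a median log2 change of -0.04 against 0.01 over all tested genes. In juveniles 13 were called higher and 1 lower, with a median of 0.05 against -0.04. Over all tested genes, 1.87% were called higher and 2.05% lower in larvae (3.92% in either direction). In juveniles 10.8% of all tested genes were called higher and 11.1% lower (21.9% in either direction). In larvae the change of Smug1-3 lay between those of Parp1-2 and Apex1. The larval count is the less stable one: it was 11 with DESeq2 and 2 with larval libraries alone, and 3 or 4 when control larvae 1 or 3 or irradiated larvae 1 or 3 was left out. The larval calls of 3mg, Parp2, Parp3-2 and Dnli1, described next, were lost with larval libraries alone (adjusted p from 0.0510 to 0.116), and that of Smug1-3 was not.

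Of the 16 DNA glycosylase genes, which remove damaged bases and so make the sites that APEX1 cuts, 2 were called higher in larvae and 3 in juveniles. Among all tested genes these shares were 1.87% and 10.8%. The median log2 change of the 16 was 0.12 in larvae and -0.11 in juveniles, where 10 of them lay below 0. The 3-methyladenine glycosylase gene 3mg rose in both stages, from 40.0 ± 10.5 to 95.1 ± 23.7 normalized reads in larvae (log2 1.25, SE 0.25, adjusted p = 0.0169) and from 68.5 ± 6.07 to 286 ± 51.3 in juveniles (log2 2.05, SE 0.23, adjusted p = 0.000125). The larval call of 3mg was lost in 4 settings (adjusted p up to 0.0671). Neil1 and Neil2, which remove oxidized bases, were called higher in juveniles (log2 0.58 and 0.97, adjusted p = 0.0384 and 0.0294). These calls were lost in 10 and 4 settings, respectively. In larvae Neil1 was at 0.02 (adjusted p = 0.972). Neil2 was at 1.03 in larvae (adjusted p = 0.0657), with all irradiated libraries above all controls. Its change in juveniles minus that in larvae was -0.06 (adjusted p = 0.966). Smug1-3, named after a uracil glycosylase, was called higher in larvae (log2 1.37, SE 0.25, adjusted p = 0.0125), while its juvenile value was -0.15 (adjusted p = 0.708). Apex2, the other AP endonuclease gene, was at 75.2 ± 5.38 normalized reads in control larvae and at 57.6 ± 1.68 in irradiated larvae (log2 -0.38, SE 0.19, adjusted p = 0.287), and in juveniles its change was 0.06 (SE 0.19, adjusted p = 0.862).

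Besides Parp1-1 and Parp1-3, the strand-break sensors hold Parp2 and a pair of Parp3 genes, whose mammalian counterparts are also activated by DNA breaks. Parp2 had 113, 146 and 118 normalized reads in control larvae and 231, 198 and 232 in irradiated larvae. In juveniles it had 252, 228 and 377 in controls and 1040, 932 and 926 after irradiation. The groups did not overlap in either stage, and Parp2 rose 1.75-fold in larvae (log2 0.81, SE 0.19, adjusted p = 0.0328) and 3.35-fold in juveniles (log2 1.74, SE 0.18, adjusted p = 7.79e-05). Parp3-2 rose in both stages (log2 1.18 and 1.82, adjusted p = 0.0449 and 0.000910), and Parp3-1 in juveniles (log2 1.38, adjusted p = 0.000590). Only 27.0% of Parp3-1 and 34.3% of Parp3-2 reads were uniquely placed, so reads of these genes may have been divided between copies. On unique reads the larval change of Parp3-2 was not called (adjusted p = 0.0655). In all, its larval call was lost in 13 settings, 10 of them with a library left out (adjusted p up to 0.116). The larval call of Parp2 was lost in 7 settings, 5 of them with a library left out (adjusted p up to 0.127). Parp2, Parp3-1 and Parp3-2 were also higher in control juveniles than in control larvae (log2 1.19, 0.54 and 1.32), as were both Parp1 paralogs.

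The scaffold and sealing genes changed less than Parp1-2 and Apex1. Xrcc1, the scaffold that binds poly(ADP-ribose) in mammals, had 24.2, 19.6 and 25.3 normalized reads in control larvae and 20.5, 22.6 and 16.1 in irradiated larvae. In juveniles it had 30.4, 17.5 and 33.5 in controls and 16.2, 34.3 and 17.0 after irradiation. The groups overlapped in both stages (log2 -0.22, SE 0.37, and -0.35, SE 0.36, adjusted p = 0.806 and 0.536). The gene had 12 to 52 reads per library, and the 95% intervals of its change, -1.03 to 0.59 in larvae and -1.13 to 0.43 in juveniles, were wide. Dnli3, the ligase that partners XRCC1, had 377, 427 and 446 normalized reads in control juveniles and 809, 658 and 589 after irradiation (log2 0.71, SE 0.15, adjusted p = 0.00443), while its larval groups overlapped (log2 0.17, SE 0.15, adjusted p = 0.587). Dpolb, the gap-filling polymerase beta, rose in juveniles (log2 0.62, SE 0.15, adjusted p = 0.00928) and was at 0.35 (SE 0.15, adjusted p = 0.199) in larvae. Hmgb1-1, Chd1l-1 and Chd1l-2 rose in juveniles (log2 0.67, 0.68 and 0.81). CHD1L is a chromatin remodeller that poly(ADP-ribose) activates.

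The calls below 0 in the list were 1 ligase and 1 polymerase gene. Dnli1, the replicative ligase, fell in larvae (log2 -0.90, SE 0.20, adjusted p = 0.0281) and was at -0.51 (adjusted p = 0.0935) in juveniles. Dpod1, the catalytic subunit of polymerase delta, fell in juveniles (log2 -0.55, SE 0.17, adjusted p = 0.0357). Pcna-1, the sliding clamp, was at -0.58 (SE 0.17, adjusted p = 0.0758) in larvae and -0.30 (SE 0.17, adjusted p = 0.235) in juveniles, and Fen1, the flap endonuclease, at -0.13 and 0.42 (adjusted p = 0.788 and 0.168). Of the other polymerase delta genes, Dpod2-1 was at 0.07 and Dpod3-1 at 0.32 in juveniles, and neither passed the test. The Dpod1 call was lost in 10 settings, with adjusted p up to 0.158, and that of Dnli1 in 6, with adjusted p up to 0.0935.

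**Figure D3:**
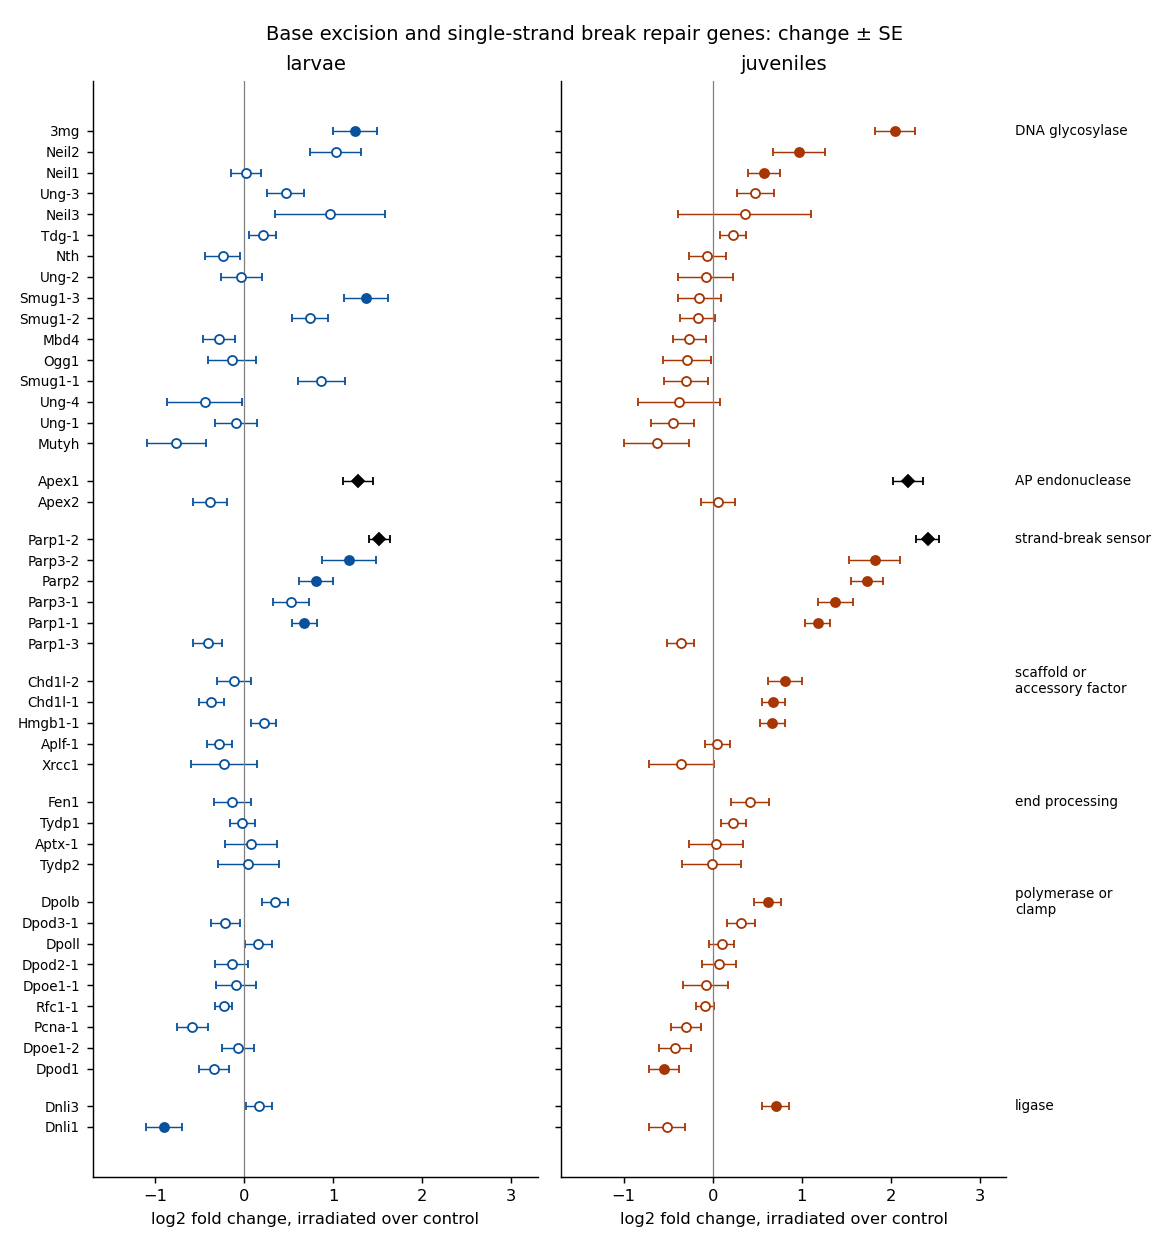
Log2 fold change, irradiated over control (x axis, ± SE), of base excision and single-strand break repair genes in larvae (left) and juveniles (right), ordered by role. Filled circles passed the test at an adjusted p up to 0.05, open circles did not, and the black diamonds are Parp1-2 and Apex1, which were chosen on these contrasts. In larvae Smug1-3 lies between Parp1-2 and Apex1.

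PARP1 belongs to a large family of ADP-ribosyltransferases, and in juveniles most of its other tested members fell. A list of the remaining family members and of the enzymes that remove ADP-ribose held 82 genes, of which 76 were tested. In larvae 1 was called higher and 6 lower (median log2 -0.46), and in juveniles 2 were called higher and 38 lower (median log2 -1.11). Over all tested genes 2.05% were called lower in larvae and 11.1% in juveniles, with medians of 0.01 and -0.04. The genes named Parp9, Par12, Par14 and Par15, whose vertebrate counterparts are known from antiviral and immune responses, made up most of this: of 56 tested, 35 fell in juveniles and 1, Par14-34, rose (log2 0.94, adjusted p = 0.000998). Par14-28, the most abundant Par14 gene among those called, went from 3001 ± 867 to 1413 ± 87.8 normalized reads in larvae (log2 -1.09, adjusted p = 0.0386) and from 9126 ± 3739 to 2117 ± 422 in juveniles (log2 -2.11, adjusted p = 0.000270). Its larval call was lost with the replicate block (adjusted p = 0.0682) and when any larval library or irradiated juveniles 1 was left out (adjusted p up to 0.142), and its juvenile call was not lost in any setting. Both Parp4 genes fell in juveniles (log2 -0.94 and -1.05), as did Tnks2-1 (log2 -1.78, adjusted p = 0.0240). Tnks2-1 had only 6 to 16 reads in an irradiated juvenile library. Its call was lost in 5 settings, each with a library left out (adjusted p up to 0.0973). The other 3 tankyrase genes were not called in juveniles.

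Control juveniles replicate 2 stood apart in these genes. Summed over the 62 Parp9, Par12, Par14 and Par15 genes found, it had 43601 normalized reads against 25587 and 25486 in the other control juveniles, and 9993 to 11431 in the irradiated juveniles. Without it, 34 of the list were called lower and 2 higher in juveniles. Its Parp1-2 level of 278 and Apex1 level of 253 normalized reads were the lowest of the control juveniles. In larvae the same sum was 13473, 8894 and 11152 in controls and 6457 to 6821 after irradiation. The larval count is less stable, with 13 genes called by DESeq2, 3 with larval libraries alone, and 1 when control larvae 1 or 3 was left out.

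The enzymes that remove ADP-ribose showed no such fall. Of 10 tested, Adprh-1 was called higher in larvae (log2 0.58, SE 0.15, adjusted p = 0.0439, but 0.103 with larval libraries alone) and Adprh-2 in juveniles (log2 1.19, SE 0.19, adjusted p = 0.000835). Among all tested genes, 1.87% were called higher in larvae and 10.8% in juveniles. The Adprh-1 call was lost in 14 settings (adjusted p up to 0.144). Parg, which breaks down the chains that PARP1 builds, had 689 ± 68.1 normalized reads in control larvae and 696 ± 67.4 in irradiated larvae (log2 0.01, 95% interval -0.28 to 0.31). Its juvenile change was 0.19 (interval -0.10 to 0.49, adjusted p = 0.343). PARP1 uses NAD, and 21 genes for NAD synthesis or for enzymes that also use NAD, such as the sirtuins, were tested. In larvae 1 was called lower (Sir2-1, log2 -0.74, adjusted p = 0.0467). In juveniles 3 were called lower (the NAD kinase gene Nadk, Sir1 and Sir7, log2 -0.56, -0.89 and -0.75). These genes are named after their values were seen. The counts compare with 2.05% and 11.1% of all tested genes called lower. The Sir2-1 call was lost with exon reads, library totals, larval libraries alone or the replicate block, and when any of 10 single libraries was left out. By edgeR, DESeq2 and limma voom alike 0 of them were called higher in either stage, and at an unadjusted p under 0.05 there were 2 in larvae and 0 in juveniles.

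**Figure D4:**
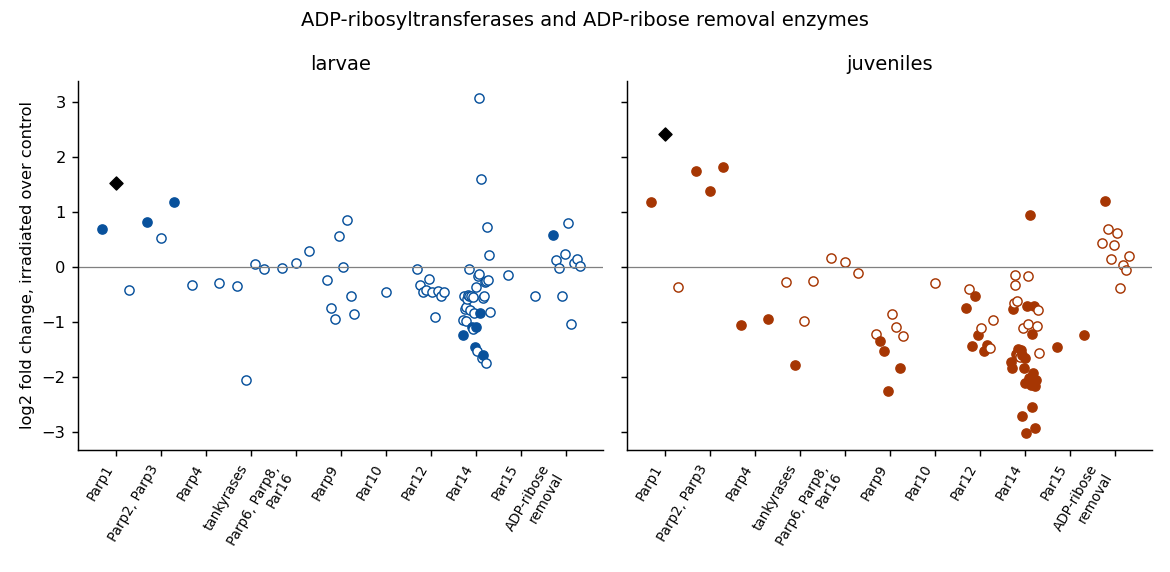
Log2 fold change, irradiated over control (y axis), of ADP-ribosyltransferase genes by family and of ADP-ribose removal enzymes in larvae (left) and juveniles (right). Filled circles passed the test at an adjusted p up to 0.05, open circles did not, and the black diamond is Parp1-2. Of the 36 tested Par14 genes, 23 fell in juveniles, whereas Parp2 and the Parp3 genes lie above 0 in both panels.

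The genes whose levels were most like those of Parp1-2 and Apex1 were found by Pearson correlation of log2 normalized reads over the 12 libraries, among 14461 other genes with a mean of at least 50 normalized reads. The 12 points form 4 groups, so the coefficients describe the pattern of groups and are no test. For Parp1-2 the closest were Rtcb (r = 0.981), an RNA ligase, Cdn2d (0.972), named after an inhibitor of cyclin-dependent kinases, Unchar_2463 (0.968), which has no annotated name, Apex1 (0.965) and Lgul-3 (0.960), named after lactoylglutathione lyase. For Apex1 they were Lgul-3 (r = 0.979), Adt3-3 (0.968), an ADP/ATP carrier, Parp1-2 (0.965), Atpo (0.963), a subunit of ATP synthase, and Qcr6-1 (0.961), a subunit of cytochrome bc1. With the mean of each stage taken out, Apex1 was the gene closest to Parp1-2 (r = 0.988), while Parp1-2 had rank 2 for Apex1. The rise after irradiation, on which both genes were chosen, stays in this measure, so nothing is drawn from their closeness.

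Likeness of pattern went with very different sizes of change. Unchar_2463 had 111 ± 15.0 normalized reads in control larvae and 1766 ± 55.1 in irradiated larvae, and 109 ± 23.6 and 1843 ± 139 in juveniles. Its change was 4.00 on the log2 scale in larvae and 4.06 in juveniles. Adt3-3 changed by 0.22 and 0.33 on the same scale, from 19279 ± 311 to 22407 ± 862 normalized reads in larvae and from 20254 ± 386 to 25434 ± 627 in juveniles. Rtcb, Cdn2d, Lgul-3 and Qcr6-1 lay between these, with log2 changes from 0.52 to 1.22 in larvae and from 1.09 to 1.48 in juveniles. Atpo also lay between Adt3-3 and Unchar_2463, at 0.25 in larvae and 0.86 in juveniles.

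Summed transcript levels of some cell type markers also moved with treatment. As the background for the counts below, 1.87% of all tested genes were called higher and 2.05% lower in larvae. In juveniles these shares were 10.8% and 11.1%. Over 25 proliferating cell markers, the summed level was 5994 to 6549 normalized reads in larvae without and 3404 to 3800 with irradiation, against 3682 to 4897 and 2439 to 2858 in juveniles, with 1 of the 25 genes at 0 in each group. Of 22 tested, 13 were called lower and 0 higher in larvae, and 15 lower and 1 higher in juveniles (Rir2-4, log2 1.23, adjusted p = 0.0419, named after its value was seen). The sum over 13 ciliated cell markers was 34811 to 36820 in control juveniles and 60173 to 73135 in irradiated juveniles, with 9 of 12 tested genes called higher, whereas it was 35587 to 36960 and 32049 to 42275 in larvae. The summed levels of 21 muscle markers overlapped between irradiated and control animals in both stages, and 5 of 18 tested genes were called lower in juveniles and 1 higher in larvae. Those of 8 neuron markers overlapped too, with 1 of 7 tested genes called lower in juveniles. The part of these shifts in the levels of Parp1-2 and Apex1 was not tested. Total gene reads per library ranged from 7675726 to 26974509, and Parp1-2 and Apex1 had 142 to 3140 reads in a library.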

How the data were processed

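The authors counted paired 75-base reads on the genes of the v2.0 genome with CLC Genomics Workbench and deposited, for each of the 12 libraries, whole-number counts per gene (total gene reads, exon plus intron, without normalization) and TPM. Strand use in counting is not given in the sources used here, so reads of overlapping antisense genes cannot be told apart, and the depth behind each level is its read count. From the deposited counts, 20780 genes passed edgeR's filterByExpr on the 4 groups and 6683 did not. Counts were normalized by TMM (factors 0.931 to 1.07) and fitted together, 1 mean per group, in R 4.3.3 with edgeR 4.0.16. P-values of two-sided quasi-likelihood tests had Benjamini-Hochberg adjustment over all tested genes, with calls at 0.05 or less. Normalized reads are counts scaled to a library of 12955497 reads. The TPM values the authors deposited were used only to compare genes and are normalized by exon length. The fit was tested on simulated data.

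The members and the lists were chosen with earlier results of these data known, and the irradiation contrasts that chose Parp1-2 and Apex1 carry no test. Genes named were those with a Parp1 number, the members of the repair and ADP-ribose lists called in either stage, the uncalled core repair genes, and the 5 genes most like each member. The genes of 1 name of the repair list entered its counts but are not reported here. The nearest genes were not named, since the files give no start or end. Alternatives were DESeq2 1.42.0 (its size factors, its Wald test), limma 3.58.1 voom, library totals only, filters of at least 1 count or of 10 counts in all 12 libraries, only the 6 libraries compared, a replicate block, unique reads, exon reads, thinning, and leaving out each library. Those for the ADP-ribose, NAD and marker lists, for the difference between stages, for single named genes and for intron shares were added after seeing the data.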

Additional observations from a re-analysis of the deposited data

Results flagged for a closer look

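Parp1-2 and Apex1 themselves carry no test of the difference between stages, since they were chosen on the contrasts it is made of. Among the other repair and ADP-ribose genes named, 7 had an irradiation change that differed between juveniles and larvae. The test was the quasi-likelihood test of edgeR, adjusted over all genes. In the whole lists, 1 gene was higher and 1 lower of 44 tested repair genes. Of 76 tested ADP-ribose genes, 1 was higher and 4 were lower. Over all tested genes 3.47% were called. Genes of these lists were named mainly for an irradiation call in a stage, so the 7 are no result about the lists. For the glycosylase gene Smug1-3 the juvenile change was lower than the larval one by 1.52 on the log2 scale (value -1.52, SE 0.35, adjusted p = 0.0361), with 1.37 in larvae and -0.15 in juveniles. For the remodeller gene Chd1l-1 it was higher by 1.05 (SE 0.19, adjusted p = 0.0151), with -0.37 in larvae and 0.68 in juveniles, and 88.0% of its reads were uniquely placed. For Adprh-2, an ADP-ribose removal gene, it was higher by 1.06 (SE 0.27, adjusted p = 0.0469), with 0.12 and 1.19.

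In 4 ADP-ribosyltransferase genes the juvenile fall was the deeper one. The difference was -0.70 for Par12-1 (adjusted p = 0.0437), -1.01 for Par14-15 (adjusted p = 0.0334), -1.97 for Par14-36 (adjusted p = 0.0189) and -1.19 for Par14-33 (adjusted p = 0.0208). Stage and dose cannot be told apart in these differences. Over the 22 other settings, the call was lost in 1 for Chd1l-1 (exon reads only, adjusted p = 0.0670), in 2 for Par14-36, in 5 for Par14-33, in 9 for Par14-15, in 11 for Smug1-3, in 14 for Adprh-2 and in 15 for Par12-1, which lost it whenever a library was left out (adjusted p up to 0.112).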

How the results depend on the processing

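The changes of Parp1-2 and Apex1 kept their direction in every alternative. With single libraries left out, the log2 change of Parp1-2 ranged from 1.43 to 1.57 in larvae and from 2.34 to 2.48 in juveniles, and that of Apex1 from 1.20 to 1.39 and from 2.05 to 2.32. The stage difference of control Parp1-2 ranged from -0.31 to -0.17, passing the test at -0.31, and the called count of Parp1 paralogs from 0 to 1 in larvae. The paralog count was also 0 in larvae with larval libraries alone and 2 in juveniles when thinned. In larvae, DESeq2's Wald test called 1646 genes in all, 11 of the repair list and 13 of the ADP-ribose list, against 814, 7 and 7 in the edgeR fit, and larval libraries alone gave 287, 2 and 3. Leaving out single libraries gave 306 to 915, 3 to 8 and 1 to 15, and 2974 to 4741 genes in all in juveniles. The NAD list had 0 larval calls with exon reads, library totals, larval libraries alone or the replicate block, and 0 to 1 with single libraries left out. By Spearman correlation 0 of the 5 genes most like Parp1-2 and 0 of the 5 most like Apex1 were shared, and with stage means taken out 2 and 1. The intron share difference in larvae ranged from -0.804 to 0.226 percentage points for Parp1-2 and from -2.76 to 0.0584 for Apex1 when single libraries were left out. Values near 0 that passed no test changed sign: Smug1-3 in juveniles (0.0027 with exon reads, -0.41 to 0.11 with libraries left out), Apex2 in juveniles (-0.015 thinned, -0.035 to 0.18), Fen1 in larvae (-0.34 to 0.012), Par12-1 in larvae (0.017 by library totals), Adprh-2 in larvae (-0.09 to 0.31) and Parg in larvae (-0.00012 and -0.00038 with DESeq2's test and size factors, -0.00097 with 10 counts in all 12 libraries, -0.0031 with exon reads, -0.0018 thinned, -0.05 to 0.1). For these the cause was not tested. With the replicate number as a block, the change of Parp1-2 was 1.52 and 2.42 and that of Apex1 1.29 and 2.20. Deviations of libraries with the same number had correlations from -0.184 to 0.0637, and those with unlike numbers from -0.148 to 0.206. No pairing by number was seen. With 3 libraries in a group, this check cannot exclude that the numbers pair them. Depth limits what can be read from genes with few reads, such as Xrcc1 with 12 to 52 in a library.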
